A study of Mus musculus with 16 samples.

Results

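The aminoacyl-tRNA synthetases, the enzymes that load each tRNA with its amino acid, were followed in mouse Th17 cells that lacked or kept pyruvate dehydrogenase (PDH) and were cultured with or without sodium acetate. Members were chosen by name: protein-coding genes whose symbol is 1 capital letter followed by ars and then nothing, 1, 2 or 3, together with Eprs, Farsa and Farsb. Lars2, the mitochondrial leucyl enzyme, was left out by the same rule because its share of counts followed a feature of single libraries. The rule found 37 genes among the 15571 in the table, 21 named for the cytosol and 16, with symbols ending in 2, for the mitochondrion. All 37 passed the filter on low counts. Of these, 36 matched by symbol and Tarsl2, the threonyl-like enzyme of the cytosol, matched through its synonym Tars3.

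A synthetase first joins its amino acid to AMP and then passes it to the matching tRNA, so translation cannot proceed without a full set. Cytosolic ribosomes and mitochondrial ribosomes draw on separate sets, both encoded in the nucleus. Gars and Kars, for glycine and lysine, supply both compartments from 1 gene each, and no gene named for mitochondria was among the members for glutamine or leucine. In the cytosol, a subset of synthetases sits in the multi-synthetase complex with scaffold proteins, and the others are free. When charging falls short, uncharged tRNA activates the kinase GCN2, and the stress factor ATF4, made after eIF2 phosphorylation, is known to raise transcription of many cytosolic synthetase genes through composite C/EBP-ATF elements.

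The study crossed genotype with acetate in 4 groups of 4 libraries. WT untreated cells came from PDHfl/fl mice, which carry loxP-flanked PDH alleles and no Cre. KO untreated cells came from PDHfl/fl mice that also carried CD4-Cre, which acts while T cells develop and so also in the CD8 lineage. WT acetate and KO acetate cells were the same genotypes with sodium acetate at 10 mM during differentiation. Naive CD4 T cells were taken from spleen and lymph nodes and cultured for 3 days with anti-CD3 (5 µg/mL, on the plate), anti-CD28 (1 µg/mL), anti-IFNγ at 5 µg/mL, and the cytokines TGFβ (2 ng/mL) and IL-6 (30 ng/mL). Sample titles write PHD where the protocols write PDH. Neither a Cre-only nor a sodium control is among the groups, and the labels give no ages and do not say whether libraries came from separate animals. The p-values therefore measure the spread between these libraries, which may be technical.

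Library totals ran from 24.6 to 33.7 M estimated counts, and the members together took 0.401% to 0.568% of them. Even the lowest member value in any library was 206 counts. The PDH subunit gene Pdha1 stood at 234 to 263 CPM (counts scaled to the TMM-corrected library size) in WT untreated, 210 to 235 in KO untreated, 250.4 to 273 in WT acetate and 232 to 262 in KO acetate libraries. Its fall of 0.14 ± 0.06 (log2 ± SE) in untreated KO cells did not pass the test (adjusted p = 0.0761), and because the labels name neither the floxed gene nor its exons, the level of the whole transcript does not check the genotype. All 6 CD4 T cell markers and all 6 Th17 markers were in the table. The CD4 T cell markers summed to 2172 to 2254 CPM in WT untreated 1741 to 1893 in KO untreated, 1989 to 2136 in WT acetate and 1825 to 1971 in KO acetate libraries. Th17 markers summed to 683 to 1089.7, 634 to 909.7, 1227 to 2066 and 1579 to 2809.9 CPM in the same order, so that every acetate library was above every untreated one. B cell markers summed to at most 5.64 CPM, 4 of 6 myeloid markers to at most 5.76, 1 of 3 NK markers to at most 1.67 and both CD8 markers to at most 18.2, and none of 5 erythroid markers was listed. The part of these markers in the results was not tested, and in such bulk RNA fewer cells of a type and less RNA per cell cannot be told apart. In 4 libraries (WT untreated 1, KO untreated 1 and 2, KO acetate 2) a single gene without a name held 3.27% to 9.14% of counts, against at most 1.53% in the other 12. Lars2 was at 6018 CPM or more in those 4 and at 1936 or less elsewhere, with a highest value of 16635.

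Promoter sequence was read for the members because the ATF4 element has a known core, TGATGNAA, and the letters show where it lies in genes that moved in these data. RefSeq windows (GRCm38.p6, 250 bases before to 50 after the annotated start) were matched for 27 of 37 members by symbol. The core was searched on both strands and occurred in 5 of 14 cytosolic windows and in 0 of 13 mitochondrial windows. The same core occurred in 3.97% of all 32851 windows and in 2.78% of the 10390 tested genes with a window. The 5 genes were Aars, Gars, Iars, Tars and Yars, for alanine, glycine, isoleucine, threonine and tyrosine, all among the 9 cytosolic genes with a window that were higher in untreated KO cells. The motifs were chosen after the values were known, so these counts are descriptions. Below, each stretch of 60 bases is written 5′ to 3′ on the gene's strand with the core in capitals. For every gene but Yars the core lies on the other strand, so the capitals read as its reverse complement. Aars holds 2 copies.
Aars, chr8:111033704-111033763, + strand: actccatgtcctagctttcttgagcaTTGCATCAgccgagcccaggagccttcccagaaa
Aars, chr8:111033812-111033871, + strand: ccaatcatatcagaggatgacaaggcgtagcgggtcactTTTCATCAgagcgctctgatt
Gars, chr6:55037945-55038004, + strand: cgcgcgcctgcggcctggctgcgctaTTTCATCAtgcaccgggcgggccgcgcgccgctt
Iars, chr13:49682100-49682159, + strand: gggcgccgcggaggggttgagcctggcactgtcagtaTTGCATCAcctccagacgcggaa
Tars, chr15:11399640-11399699, - strand: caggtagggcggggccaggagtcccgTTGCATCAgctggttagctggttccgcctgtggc
Yars, chr4:129189873-129189932, + strand: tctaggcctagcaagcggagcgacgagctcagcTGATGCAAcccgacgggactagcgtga

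Relative to the annotated start, the core began at position −112 and at position 10 in Aars, −30 in Gars, 8 in Iars, −15 in Tars and 4 in Yars. The E-box CACGTG, a core bound by MYC among others, occurred in Aars, Farsb, Iars and Tars and, of the mitochondrial genes, in Ears2, against 7.15% of all windows and 11.6% of the tested genes with a window. The cyclic AMP element TGACGTCA occurred in no member window, in 1.79% of all windows and in 3.57% of those tested genes. No match says only that these letters are not in a window.

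Per kilobase of transcript, the cytosolic genes were the more abundant set. In WT untreated cells their median was 52.8 CPM per kb (range 8.53 to 136), against 7.12 (range 2.14 to 25.9) for the mitochondrial genes. Kars led with 136 CPM per kb, followed by Gars at 125 and Sars, the seryl enzyme, at 115. Among mitochondrial genes Tars2, for threonine, was at 25.9 and Rars2, for arginine, at 25.3 CPM per kb, while Wars2, for tryptophan, was lowest of all members at 2.14. Cars, for cysteine, at 24.2 and Tarsl2 at 8.53 were the cytosolic genes that fell within the mitochondrial range. The median coefficient of variation over genes between replicates was 4.14% for cytosolic and 5.05% for mitochondrial genes in WT untreated libraries, and of 10.9% and 9.10% in WT acetate libraries.

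The first comparison asks how loss of PDH changed the synthetases without acetate. Of 21 cytosolic genes, 13 were higher in KO than in WT cells and 3 lower, where 18% of the 14985 genes tested were higher and 18.6% lower. The median log2 fold change of the cytosolic genes was 0.32, and that of all genes tested was 0.01. The 13 were Aars, Cars, Dars, Eprs, Gars, Iars, Lars, Mars, Nars, Tars, Tarsl2, Vars and Yars, and the 3 were Hars, Kars and Qars. Farsa, Farsb, Rars, Sars and Wars did not pass the test, with log2 fold changes between −0.13 and 0.22. The call for Lars ended in 10 of the 16 fits that left out 1 library (any WT untreated library, KO untreated 1, 2 or 3, WT acetate 2 or 4, or KO acetate 3), and Lars and Tarsl2 were not called on library totals alone. For Lars, KO untreated 4, at 126.3 CPM, lay within the WT untreated range of 112.5 to 127.1 CPM.

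**Figure D1:**
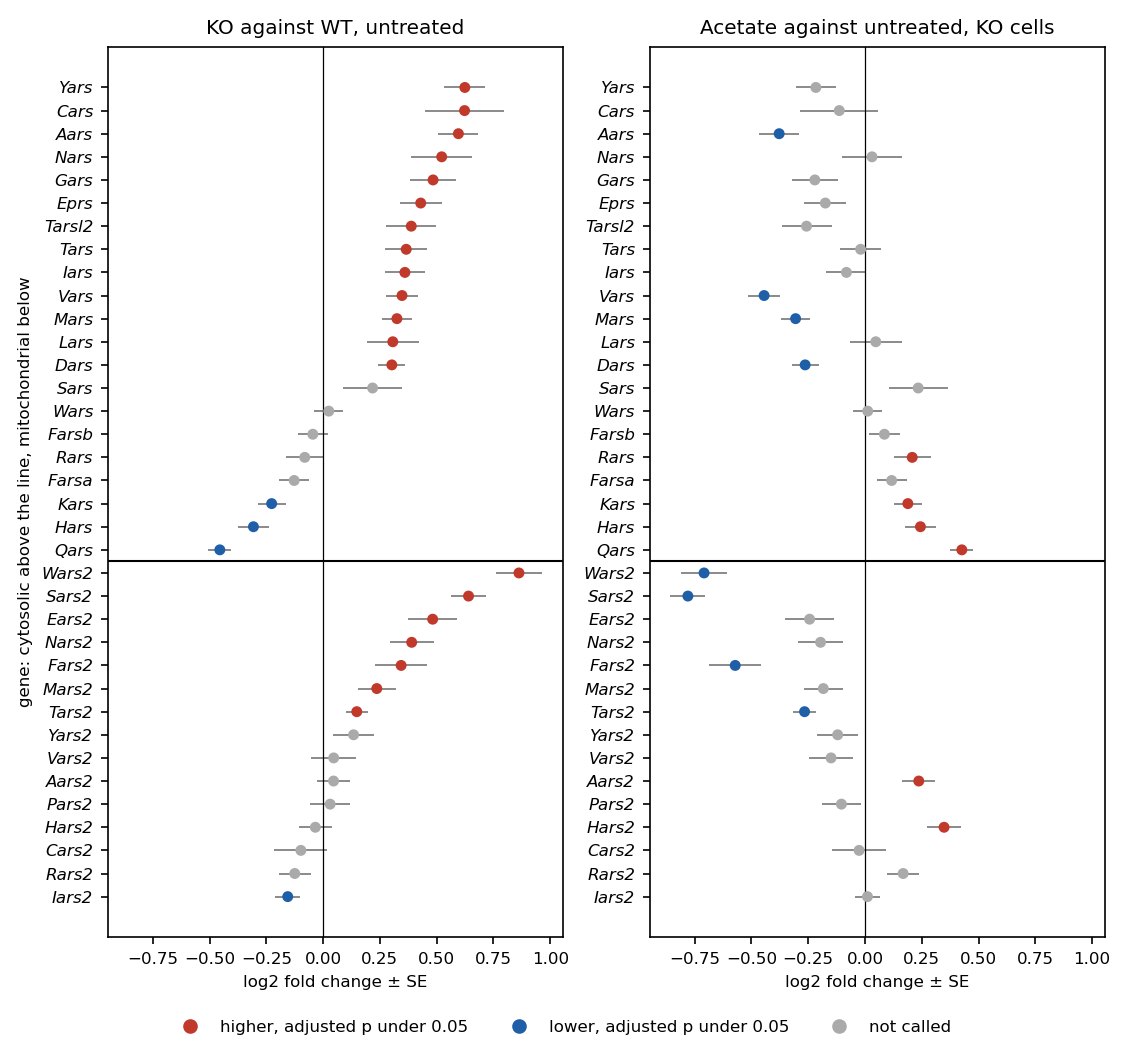
Log2 fold change with its SE for 36 synthetase genes, KO against WT without acetate (left) and acetate against untreated in KO cells (right), ordered within each class by the left panel. On the left 13 cytosolic and 7 mitochondrial genes are called higher, and on the right the called genes point both ways in both classes.

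Yars, the tyrosyl enzyme, had 115, 104, 114 and 109 CPM in the WT untreated libraries and 166, 185, 169.9 and 162 CPM in the KO untreated libraries. Every KO library was above every WT library, and Yars was 1.54-fold higher (log2 0.62 ± 0.09, adjusted p = 3.6e-05). Aars, the alanyl enzyme, had 265, 242, 244 and 234 CPM in WT and 356, 411, 372 and 350.0 CPM in KO libraries. Again the groups did not overlap, and the difference was 1.51-fold (log2 0.60 ± 0.09, adjusted p = 4.73e-05). For Cars, the cysteinyl enzyme, the WT values of 81.1, 79.4, 70.9 and 80.0 CPM lay below the KO values of 114, 141, 119.8 and 104 CPM. Its log2 fold change of 0.62 was as large as that of Yars, with a larger error (0.17, adjusted p = 0.0116), and Cars was among the calls lost without the 4 libraries named above. Nars, for asparagine, rose from 286 ± 8.74 to 410.3 ± 43.5 CPM (mean ± SD, n = 4, log2 0.52 ± 0.13, adjusted p = 0.00617). Gars, for glycine, rose from 297 ± 12.3 to 415 ± 26.9 CPM (log2 0.48 ± 0.10, adjusted p = 0.00115). Vars, for valine, had 267, 266, 266 and 226 CPM in WT and 288, 353, 331 and 332 CPM in KO libraries, without overlap (log2 0.35 ± 0.07, adjusted p = 0.000927).

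Qars, the glutaminyl enzyme, moved the other way. Its values were 173, 174, 169.6 and 183 CPM in WT and 127, 129, 124 and 129.9 CPM in KO libraries, and it fell by 0.45 ± 0.05 on the log2 scale (adjusted p = 2.63e-06), with the smallest adjusted p of all members. Hars, the histidyl enzyme, had 186, 182, 175 and 171 CPM in WT and 147, 131, 142 and 156 CPM in KO libraries. Every KO library lay below every WT library, and Hars fell by 0.31 ± 0.07 (adjusted p = 0.00152). Kars, the lysyl enzyme, fell by 0.23 ± 0.06 (adjusted p = 0.00726), but KO untreated 4, at 289 CPM, lay within the WT range of 278 to 312 CPM.

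**Figure D2:**
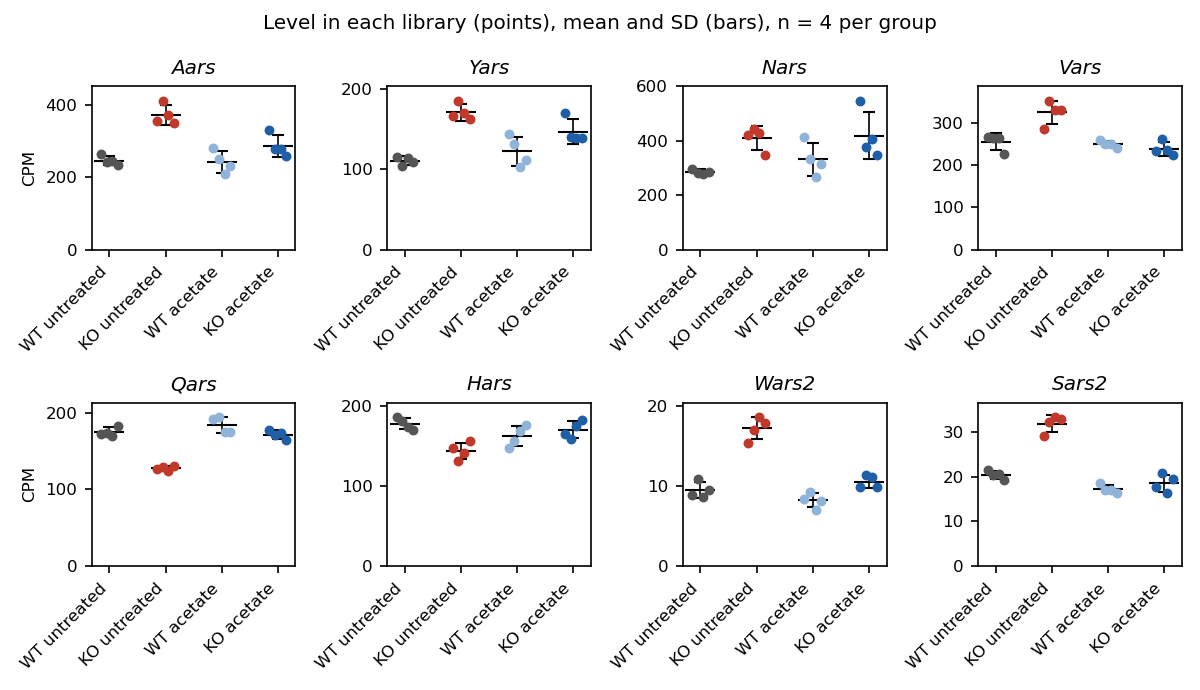
CPM of 8 synthetase genes in each of the 16 libraries (points) with the mean and SD of the 4 libraries of a group (bars), on axes that start at 0. Aars, Yars, Nars and Vars are higher and Qars and Hars lower in KO untreated than in WT untreated libraries, and Wars2 and Sars2 are highest in KO untreated libraries.

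Within the cytosolic set, members of the multi-synthetase complex divided. Of its 8 genes, Dars, Eprs, Iars, Lars and Mars were higher, Kars and Qars were lower and Rars was not called, with a median of 0.30. Of the 13 free cytosolic genes, 8 were higher and 1, Hars, was lower, with a median of 0.37. Both structural classes of synthetase took part: 6 of 9 class I genes and 6 of 11 class II genes in the cytosol were higher, and Eprs, which joins a glutamyl enzyme of class I to a prolyl enzyme of class II, was counted in neither. Eprs had 316, 304, 306 and 308 CPM in WT and 433, 446, 433 and 350.0 CPM in KO libraries, where it was 1.35-fold higher (adjusted p = 0.00134). In KO untreated 4 the table lists the same count, 9522, for Eprs and for Aars. Without the 4 libraries in which 1 unnamed gene held over 3% of counts, 8 cytosolic genes remained higher and 1 lower, and Cars, Hars, Kars, Lars, Nars, Tars and Tarsl2 were lost. Over all genes that fit called 1577 of 15374 higher and 1784 lower, against 2699 and 2782 of 14985 with all libraries.

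Of the 16 mitochondrial genes, 7 were higher (Ears2, Fars2, Mars2, Nars2, Sars2, Tars2 and Wars2) and 2 lower, Iars2 among them, in untreated KO cells. Over all genes tested 18% were higher and 18.6% lower. The median log2 fold change of the mitochondrial genes was 0.09, against 0.01 over all genes tested. On library totals alone it was 0.03, against −0.04 over all genes tested. Wars2, the tryptophanyl enzyme of mitochondria, had 8.87, 10.8, 8.64 and 9.43 CPM in WT and 15.3, 17.0, 18.5 and 17.9 CPM in KO libraries. This 1.82-fold rise (log2 0.86 ± 0.10, adjusted p = 4.77e-06) was the largest of the 37 members, and no KO library overlapped a WT library. Sars2, the mitochondrial seryl enzyme, had 21.5, 20.5, 20.7 and 19.3 CPM in WT and 29.0, 32.3, 33.3 and 33.0 CPM in KO libraries. It was 1.56-fold higher without overlap (log2 0.64 ± 0.08, adjusted p = 5.58e-06). Ears2, for glutamate, rose from 10.1 ± 0.211 to 14.1 ± 0.969 CPM (log2 0.48 ± 0.11, adjusted p = 0.00198). The 7 mitochondrial genes not called lay between −0.12 and 0.13. The libraries of the groups overlapped for Mars2 and Nars2 although both passed the test. Scaled to library totals alone, 4 mitochondrial genes were higher and 2 lower, and without the 4 libraries named above 3 were higher and 1 lower, with Fars2, Iars2, Mars2, Nars2 and Tars2 lost. Over all 14985 genes tested, library totals gave 1914 higher and 3217 lower. Without those 4 libraries, 1577 of 15374 genes were higher and 1784 lower. On library totals Fars2, Mars2 and Tars2 were lost, and the calls for Fars2, Iars2, Mars2 and Tars2 also ended in 4, 4, 5 and 3 of the 16 fits that left out 1 library: without KO untreated 2 or 4 or WT untreated 1 or 3 for Fars2, KO untreated 2 or 3 or WT untreated 1 or 2 for Iars2, KO untreated 1, 3 or 4 or WT untreated 1 or 2 for Mars2, and KO untreated 4 or WT untreated 2 or 4 for Tars2.

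Cytosolic and mitochondrial genes for the same amino acid could be set side by side in 16 pairs over 14 amino acids. Both genes rose in 4 pairs, those of asparagine (Nars and Nars2), methionine (Mars and Mars2) and threonine (Tars or Tarsl2 with Tars2). In 4 pairs the mitochondrial gene alone was called higher: Sars2 with Sars, Wars2 with Wars, and Fars2 with Farsa and Farsb. For tryptophan the log2 fold changes were 0.86 for Wars2 and 0.02 for Wars, whose levels of 87.9 ± 6.10 CPM in WT and 89.5 ± 6.94 CPM in KO libraries differed by less than their spread. The cytosolic gene alone was called higher for alanine, cysteine, tyrosine and valine. For isoleucine the calls were opposite, with Iars at 0.36 against Iars2 at −0.16. The difference between the members of a pair was not itself tested.

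**Figure D3:**
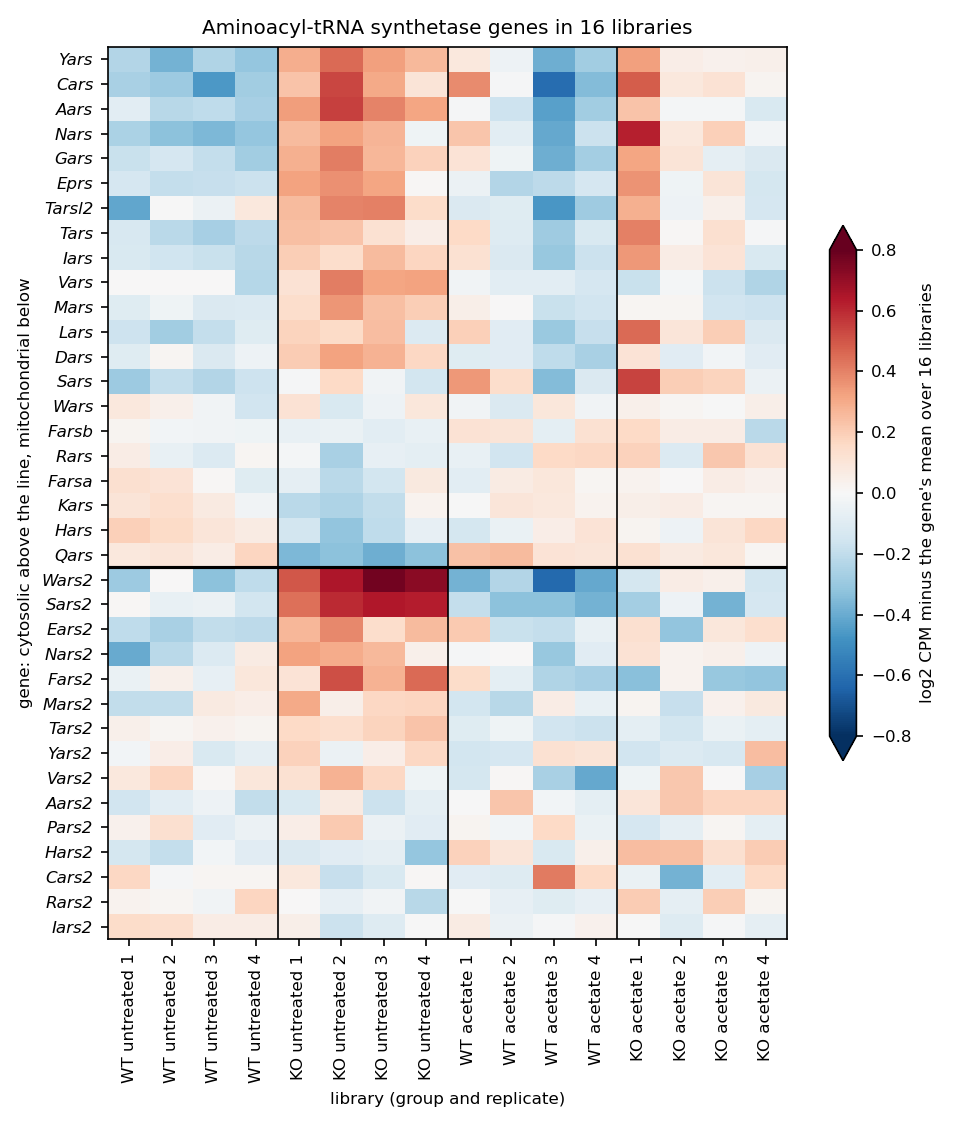
Log2 CPM of 36 synthetase genes in each library minus each gene's mean over the 16 libraries, with cytosolic genes above the thick line and mitochondrial genes below it. Most cytosolic rows are high in KO untreated libraries, and KO acetate 1 is high in many of them while Wars2, Sars2 and Fars2 are not.

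Acetate given to KO cells moved members both ways. Of 21 cytosolic genes, Hars, Kars, Qars and Rars were higher and Aars, Dars, Mars and Vars lower than in untreated KO cells, where 22.1% of all genes tested were higher and 21.6% lower. Of 16 mitochondrial genes, 3 were higher, Aars2 and Hars2 among them, and Fars2, Sars2, Tars2 and Wars2 were lower. These shares are near those of all genes. In the same libraries the mean of Il17a, the cytokine gene that defines Th17 cells, went from 137 CPM in KO untreated to 868 CPM in KO acetate, and from 135 to 485 CPM in WT cells, and the part of this marker shift in the acetate results was not tested. The class medians were −0.02 and −0.13, against −0.01 over all genes tested. Scaled to library totals alone, the median of all genes moved to 0.09, the cytosolic median to 0.09 and the mitochondrial median to −0.03, with 5 cytosolic genes higher and 3 lower and 4 mitochondrial genes higher and 3 lower. Over all 14985 genes tested, 4229 were then higher and 2085 lower. Without KO acetate 1 the cytosolic median was −0.12.

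The KO untreated libraries that define this comparison are the same as in the first, so the values below are set beside it and are no second support. Sars2 went from 29.0, 32.3, 33.3 and 33.0 CPM in KO untreated to 17.7, 20.7, 16.4 and 19.4 CPM in KO acetate libraries. All KO acetate libraries were below all KO untreated ones, and Sars2 fell by 0.78 ± 0.08 (adjusted p = 2.46e-07). Wars2 had 9.84, 11.3, 11.1 and 9.80 CPM in KO acetate libraries, again below every untreated KO library, and fell by 0.71 ± 0.10 (adjusted p = 1.78e-05). Fars2, the mitochondrial phenylalanyl enzyme, fell by 0.57 ± 0.12 (adjusted p = 0.000556), from 13.3 ± 1.66 to 8.98 ± 1.14 CPM. In the cytosol Vars fell by 0.44 ± 0.07 (adjusted p = 5.66e-05) and Aars by 0.38 ± 0.09 (adjusted p = 0.00178). Vars had 235, 262, 236 and 225 CPM in KO acetate libraries, and the highest was below the lowest untreated KO library. Mars, for methionine, and Dars, for aspartate, fell by 0.31 ± 0.07 and 0.26 ± 0.06.

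Qars rose with acetate in KO cells to 177, 171, 173 and 165 CPM, above every untreated KO library (log2 0.43 ± 0.05, adjusted p = 2.24e-06). Hars rose to 166, 159, 175 and 184 CPM (log2 0.24 ± 0.07, adjusted p = 0.00602). Hars2, the mitochondrial histidyl enzyme, rose from 23.6 ± 1.74 to 30.0 ± 1.11 CPM (log2 0.35 ± 0.07, adjusted p = 0.000787). Kars and Rars were called higher with overlapping libraries. The call for Kars ended without KO untreated 1, 2 or 3, that for Rars (adjusted p = 0.0477) in 11 of the 16 fits that left out 1 library (any untreated library, or KO acetate 1, 3 or 4) and with no filter on low counts, and that for Aars2 without KO untreated 3. The 9 other cytosolic genes that had been higher in untreated KO cells were not called with acetate, with log2 fold changes of 0.05 for Lars, 0.03 for Nars, −0.02 for Tars, −0.08 for Iars, −0.11 for Cars, −0.17 for Eprs, −0.22 for Yars, −0.22 for Gars and −0.26 for Tarsl2. Yars, at an adjusted p of 0.0572 by edgeR, was called lower by DESeq2 (adjusted p = 0.0459), with no filter on low counts (0.0471) and with the replicate number as a block (0.0270), and Gars with the block (0.0166). Without KO acetate 1, Eprs, Gars, Tarsl2 and Yars were called lower. Without the 4 libraries with a high share on 1 gene, 1 cytosolic gene, Qars, was higher and the same 4 were lower. Over all 15374 genes in that fit, 2509 were higher and 2637 lower.

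In WT cells acetate called no cytosolic gene by edgeR, none at an unadjusted p under 0.05 and none by DESeq2, where 7.89% of all genes tested were higher and 7.55% lower by edgeR. Of the mitochondrial genes 1 was higher and 1, Sars2, lower. Sars2 had 18.7, 17.0, 17.0 and 16.4 CPM with acetate, below every untreated WT library, and fell by 0.24 ± 0.08 (adjusted p = 0.0395). Sars2 lost its call without WT untreated 1, 2 or 3, WT acetate 2, 3 or 4 or KO untreated 3, on library totals alone, and without the 4 libraries with a high share on 1 gene.

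Whether acetate acted differently by genotype was tested by the interaction, its log2 effect in KO minus its log2 effect in WT. It was positive for Hars (0.38 ± 0.09, adjusted p = 0.0143) and Qars (0.36 ± 0.07, adjusted p = 0.00386), where 6.37% of all genes tested had a positive call. A negative interaction was called for Mars (−0.33 ± 0.09, adjusted p = 0.0261), Vars (−0.41 ± 0.10, adjusted p = 0.0119), Sars2 (−0.54 ± 0.11, adjusted p = 0.00404) and Wars2 (−0.50 ± 0.14, adjusted p = 0.0293), where 5.54% had a negative call. For the other 31 members the interaction did not pass the test, Aars (−0.36 ± 0.12, adjusted p = 0.0670) and Yars (−0.36 ± 0.13, adjusted p = 0.0704) included. DESeq2 and the fit with a replicate block called both negative. On library totals alone Mars, Vars and Wars2 were not called. Without KO acetate 2, a negative interaction was also called for Fars2 (−0.57) and a positive one for Rars2 (0.32). The call for Wars2 was lost without KO acetate 1, KO untreated 3, WT acetate 2, WT untreated 3 or WT untreated 4, and that for Mars without KO acetate 3, WT acetate 1, WT acetate 2, WT untreated 3 or WT untreated 4. Without the 4 libraries with a high share on 1 gene, Hars, Mars and Wars2 were not called.

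Compared under acetate, KO and WT cells differed for no synthetase by edgeR, in a comparison in which 0.487% of all genes tested were higher and 0.514% lower. At an unadjusted p under 0.05, 9 cytosolic and 2 mitochondrial genes were higher in KO cells and none lower. The share of all genes at that unadjusted threshold is not given, so these counts cannot be set against the shares above. DESeq2 called none of the cytosolic genes and 1 mitochondrial gene, Wars2, where it called 324 of 15571 genes higher and 502 lower. The cytosolic median was 0.20 and the mitochondrial median 0.07, against 0.01 over all genes tested. Leaving out KO acetate 1 took the cytosolic median to 0.09, and leaving out KO acetate 4 took the mitochondrial median to 0.04. Yars, at 143, 131, 103 and 111 CPM in WT acetate and 169.7, 141, 138 and 139 CPM in KO acetate libraries, had overlapping groups (log2 0.26 ± 0.09, adjusted p = 0.124). Wars2, at 8.35, 9.23, 7.05 and 8.16 CPM in WT acetate libraries, was below every KO acetate library (log2 0.36 ± 0.10, adjusted p = 0.0842).

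Set against WT untreated cells, KO acetate cells had 8 cytosolic genes higher (Cars, Eprs, Iars, Lars, Nars, Sars, Tars and Yars) and none lower, where 12.9% of all genes tested were higher and 13.5% lower. Libraries of the groups overlapped for Eprs and Lars. Their lowest KO acetate values were 315.4 and 125.5 CPM, and their highest WT untreated values 315.8 and 127.1 CPM. At an unadjusted p under 0.05, 10 cytosolic genes were higher and none lower, and the share of all genes at that threshold is not given. Nars, at 547, 376, 405 and 349 CPM in KO acetate libraries, was above all WT untreated libraries, which had 298, 283, 277 and 286 CPM (log2 0.55 ± 0.13, adjusted p = 0.00655). Yars was 1.33-fold higher (adjusted p = 0.00279). Of the mitochondrial genes Aars2 (log2 0.28 ± 0.07, adjusted p = 0.00835) and Hars2 (log2 0.31 ± 0.07, adjusted p = 0.00423) were higher. The 8 cytosolic calls depended on single libraries: 3 remained without KO acetate 1, 4 without KO acetate 3 or WT untreated 1, 2 or 3, and 5 without WT untreated 4. Over all genes these fits also called fewer, 1353 to 1716 higher and 1508 to 1885 lower, against 1935 and 2019 with all libraries. In KO acetate 1 the cytosolic genes stood high, and it was the highest of its group for 14 of 21 of them. In the other groups WT untreated 1 was the highest for 13, WT acetate 1 for 12 and KO untreated 2 for 11 of the 21. The same counts over all genes are not given. Without KO acetate 2, Ears2 was called higher as well (log2 0.33) and Fars2 lower (−0.33).

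Summed over genes, the cytosolic set took 3724 ± 77.8 CPM in WT untreated, 4484 ± 175 in KO untreated, 3865 ± 320.2 in WT acetate and 4281 ± 427 in KO acetate libraries (mean ± SD, n = 4). The mitochondrial set took 472 ± 2.71, 499.7 ± 7.03, 460.1 ± 7.73 and 472 ± 7.58 CPM in the same order. In both sets every untreated KO library was above every untreated WT library. The acetate groups overlapped in the cytosolic sum, where WT acetate libraries ran from 3529 to 4282 CPM and KO acetate libraries from 3880 to 4884 CPM. Cytosolic to mitochondrial, the ratio of the sums was 7.88 ± 0.173 in WT untreated, 8.98 ± 0.392 in KO untreated, 8.39 ± 0.571 in WT acetate and 9.07 ± 0.885 in KO acetate libraries.

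**Figure D4:**
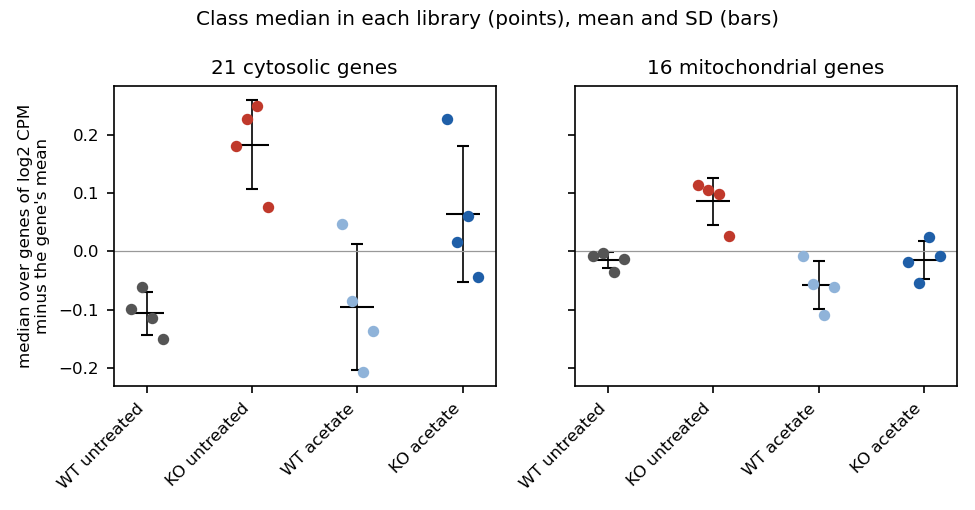
Median over the 21 cytosolic (left) and 16 mitochondrial (right) synthetase genes of log2 CPM minus each gene's mean, for each library (points) with the mean and SD of each group (bars). KO untreated libraries lie above WT untreated libraries in both panels, by more in the cytosolic one, and KO acetate 1 stands at 0.23 among cytosolic medians.

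Other genes of tRNA charging and its use were taken from lists. Over all genes tested, 18% were higher and 18.6% lower in untreated KO cells. With acetate in KO cells, 22.1% were higher and 21.6% lower. Among the 3 scaffold genes of the multi-synthetase complex, Eef1e1 and Aimp1 were higher in untreated KO cells (log2 0.24 ± 0.07 and 0.17 ± 0.06) and Aimp2, at 0.23 ± 0.10, was not called. Aimp2 fell by 0.45 ± 0.10 with acetate in KO cells (adjusted p = 0.00129). Of the 4 genes that complete charging in mitochondria, Qrsl1, a subunit of the amidotransferase that makes glutaminyl-tRNA there, was higher in untreated KO cells (log2 0.25 ± 0.09, adjusted p = 0.0417). With acetate in KO cells Qrsl1 and its partner subunit Gatb fell by 0.32 ± 0.09 and 0.33 ± 0.09.

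Mitochondrial translation factors were mixed, with Guf1 and Mrrf higher, Tufm and Gfm1 lower and 6 of 10 not called in untreated KO cells. Those counts are near the 18% higher and 18.6% lower over all genes tested, which also stand beside the lists below. Tufm, the mitochondrial elongation factor Tu, went from 112 ± 6.21 to 89.2 ± 11.4 CPM, with overlapping libraries (adjusted p = 0.00279). Of 14 genes for maturation of mitochondrial tRNA, 4 were higher and 4 lower, among them Nsun3, a methyltransferase for methionine tRNA (log2 0.52 ± 0.13), and the RNase P subunit gene Prorp, listed as 1110008L16Rik (−0.42 ± 0.07). In the cytosol, 1 of 7 elongation genes, Eef1a1, was higher (log2 0.43 ± 0.11, adjusted p = 0.004). Eef1a1 has near-identical copies in the genome, so its estimate is uncertain. Of 8 proofreading and peptidyl-tRNA genes Ptrhd1 and Dtd1 were higher and Ptrh2 lower, and of 4 selenocysteine genes Secisbp2 and Pstk were higher.

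Of the 9 genes of GCN2 sensing, Impact, a GCN2 inhibitor, was higher (log2 0.49 ± 0.10, adjusted p = 0.000872), Eif2b4 was lower and 7 were not called in untreated KO cells. Other genes known as ATF4 targets, with Atf4 itself, were higher in 20 of 23 cases and lower in none, with a median of 1.02. Over all genes tested 18% were higher and 18.6% lower, with a median of 0.01. Among them Atf5 went from 14.9 ± 0.925 to 50.9 ± 5.63 CPM, Slc7a5, an amino acid transporter, from 229 ± 23.8 to 478 ± 33.2 CPM, Shmt2, a mitochondrial serine hydroxymethyltransferase, from 247 ± 18.2 to 509 ± 45.7 CPM and Atf4 from 292 ± 8.31 to 570.3 ± 35.5 CPM. With acetate in KO cells 14 of the 23 fell and none rose, where 21.6% of all genes tested were lower and 22.1% higher. The list was written with earlier results of these data known, and the part of ATF4 in the synthetase changes was not tested. Myc went from 402 ± 40.4 to 599 ± 64.8 CPM in untreated KO cells (log2 0.58 ± 0.08, adjusted p = 4.03e-05) and was at 404 ± 21.2 CPM in KO acetate libraries.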

How the data were processed

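Libraries (16) were made from RNA of mouse Th17 cells with the TruSeq Stranded kit, per the labels' protocols. The authors deposited 1 table of estimated counts per gene, as whole numbers, and Salmon, DESeq2 and DESeq are listed, with no version, in the submitters' processing notes. How estimates were rounded, the annotation and the build are not given in the sources used, and estimates divide reads shared by near-identical genes. Of 15571 identifiers, 15221 were named from reference tables and 350 were not.

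Tests ran in R 4.3.3 with limma 3.58.1 and edgeR 4.0.16: TMM scaling, filterByExpr on the groups, 1 robust quasi-likelihood fit of all 16 libraries without a replicate term, and Benjamini-Hochberg adjustment over the 14985 genes tested, with a call at an adjusted p under 0.05. All adjusted p-values are from this test unless DESeq2 (1.42.0), an alternative, is named. The words higher, lower, rose and fell are used of calls. Exceptions are the counts at an unadjusted p and the fall of Pdha1, which are no calls. The table gives 1 estimate per gene and library, so precision rests on the spread between 4 libraries per group. Levels per kb use the coding transcript with the longest coding sequence in GENCODE M21. Sequences were taken from RefSeq windows of GRCm38.p6. The code was tested on simulated data.

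The members and lists were chosen with earlier results of these data known. Any member may be named, except 1 that is counted and not reported here, and of each other list up to 4 genes per comparison with the smallest adjusted p. Alternatives were library totals alone, DESeq2, no filter, a replicate block, each library left out, the 4 libraries with over 3% of counts on 1 gene left out, that gene removed, an adjusted p under 0.01, and changes of membership (Lars2 added, Gars and Kars out, and, chosen after seeing the data, Tarsl2 out).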

Additional observations from a re-analysis of the deposited data

Results flagged for a closer look

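In 10 of the 156 sets of 4 values, 1 set for each of the 37 members and the 2 class medians in each group, a single library stood far from the other 3 (by the gap to the nearest value as a share of the range), which chance gives in about 5% of sets. Low values were 70.9 CPM for Cars in WT untreated 3, 350.0 for Eprs in KO untreated 4, 101 for Farsb in WT acetate 3, 226 for Vars in WT untreated 4 and 9.38 for Ears2 in KO acetate 2. High values were 289 CPM for Kars in KO untreated 4, 169.7 for Yars in KO acetate 1, 20.9 for Cars2 in WT untreated 1, 10.7 for Fars2 in KO acetate 2 and 37.5 for Yars2 in KO acetate 4.

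The effect of acetate differed between KO and WT cells for 6 members by the interaction test of edgeR: Hars at 0.38, Qars at 0.36, Mars at −0.33, Vars at −0.41, Sars2 at −0.54 and Wars2 at −0.50 on the log2 scale. Over all genes tested 6.37% had a positive and 5.54% a negative call. In each of the 6 all 4 untreated KO libraries lay outside the range of the untreated WT libraries. The share of all genes tested that separate in this way is not given, so how common it is cannot be told. The untreated libraries enter the interaction, so this separation is no further support for it.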

How the results depend on the processing

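No call of a member changed direction under the alternatives run. Leaving out the 4 libraries with a high share on 1 gene, calls of cytosolic genes went to 9 for KO against WT untreated, 5 for acetate in KO, 3 for KO acetate against WT untreated and 2 for the interaction, and of mitochondrial genes to 4, 1 for acetate in WT and 1 for the interaction; fewer libraries entered these fits. On library totals alone the interaction had 2 cytosolic calls and 1 mitochondrial call, and acetate in WT had 1. Over all 14985 genes tested the interaction then had 939 positive and 442 negative calls, and acetate in WT had 1196 higher and 558 lower. DESeq2 called 1 mitochondrial gene for KO against WT with acetate, 4 for acetate in WT (Tars2 and Vars2 added), 4 for KO acetate against WT untreated (Iars2 and Tars2 added) and 4 for the interaction (Fars2 and Rars2 added). Of 15571 genes it called 324 higher and 502 lower for KO against WT with acetate, where edgeR called 73 and 77 of 14985. It called 1398 and 1351 for acetate in WT, 2064 and 2298 for KO acetate against WT untreated, and 1263 and 1093 for the interaction. By edgeR these were 1183 and 1132, 1935 and 2019, and 955 and 830. The cause of the difference between the 2 methods was not tested. At an adjusted p under 0.01 cytosolic calls were 3 for KO acetate against WT untreated and 1 for the interaction, and mitochondrial calls 5 for KO against WT untreated, 0 for acetate in WT and 1 for the interaction. Counts over all genes at that threshold are not given. Leaving out 1 library at a time gave 3 to 10 cytosolic calls for KO acetate against WT untreated, and for mitochondrial genes 0 to 3 calls for acetate in WT, 2 to 4 for KO acetate against WT untreated and 1 to 4 for the interaction. Over all genes these fits called 1353 to 1985 higher and 1508 to 2138 lower for KO acetate against WT untreated. Acetate in WT had 813 to 1249 and 734 to 1168, and the interaction 680 to 1084 and 577 to 915.

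Correlations between libraries were taken over the genes tested, on log2 CPM minus each gene's mean in its group. They therefore compare departures from the group means and not the levels themselves. Libraries of the same replicate number had correlations of −0.08 to 0.23 (median 0.05) over 24 pairs. Those of different numbers had −0.20 to 0.20 (median −0.01) over 72 pairs. Between KO untreated and KO acetate, same numbers gave 0.086, 0.164, 0.165 and 0.1355, and different numbers at most 0.040. Whether the numbers pair the samples is therefore not settled, and the main test takes no pairing. With acetate, KO against WT had 182 genes higher and 226 lower over all genes tested with that number as a block, against 73 and 77 without it. With the replicate number as a block, cytosolic calls were 16, 0, 0, 10, 10 and 6 and mitochondrial calls 9, 0, 3, 8, 3 and 2 for KO against WT untreated, KO against WT with acetate, acetate in WT, acetate in KO, KO acetate against WT untreated, and interaction. Over all genes the same fit called 2858 higher and 3028 lower for KO against WT untreated and 1312 and 1320 for acetate in WT. It called 3454 and 3397 for acetate in KO, 2109 and 2292 for KO acetate against WT untreated, and 1222 and 1037 for the interaction.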
